A study of Homo sapiens with 2 samples.

Results

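The genes described here are the protein-coding genes of the long arm of chromosome 3 from MECOM to LMLN, cytogenetic bands 3q26 to 3q29, taken by their start position in GRCh38.p14. SOX2, TP63 and 11 other genes of the stretch, named in the selection or carrying CLDN or ABC symbols, were left out, which gave 164 genes. Of these, 143 had at least 1 probe set that the platform annotation gives to a single gene, out of 19775 such genes on the array, and the other 21 were not analysed here. Members were chosen by position, but the stretch was picked with earlier results of these same arrays known. Its ratios are therefore given as a description. The cells were KYSE-140, an established human line of esophageal squamous cell carcinoma, sorted by flow cytometry into CD90+ and CD90- populations. CD90 is a surface glycoprotein encoded by THY1. Total RNA of each population was measured on 1 Affymetrix U133 Plus 2.0 array, so there was 1 CD90+ sample and 1 CD90- sample, both from this line and with no treatment in the labels. No sort was repeated, so nothing estimates the spread between sorts, and no difference below carries a p-value.

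Distal 3q is gained in many squamous carcinomas, among them those of the esophagus, lung and head and neck, and the stretch carries several genes studied as drivers there. PRKCI encodes an atypical protein kinase C of cell polarity, ECT2 a guanine nucleotide exchange factor needed for cytokinesis, ACTL6A a subunit of chromatin remodelling complexes, and MECOM a zinc finger transcription factor. Toward the end of the arm lie TFRC, the receptor that brings transferrin-bound iron into cells, and genes for mitochondrial fusion (OPA1), apical-basal polarity (DLG1) and p21-activated kinase signalling (PAK2). The arrays measured RNA only.

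Signals are MAS5 values, in which the Affymetrix algorithm combines the matched and mismatched probes of a probe set, scaled by the authors so that both arrays have a trimmed mean of about 500.1. THY1 read 293 in CD90+ and 78.9 in CD90- cells, in the direction of the sort. Squamous markers were present on both arrays: all 6 listed genes with a probe set of their own were measured (KRT6A and TP63 were not analysed here), with a summed signal of 76043 in CD90+ and 77283 in CD90- cells. KRT5, a basal keratin, read 19357 in CD90+ and 19208 in CD90- cells. The listed markers did not all move alike. KRT14 was 1.44-fold and DSG3 1.42-fold higher in CD90+ cells, and SOX2 was 1.17-fold lower. KRT13 and SFN differed by 1.02-fold and 1.01-fold. Of the fibroblast markers 1 of 6 was measured, COL1A1, at 2125 in CD90+ and 1240 in CD90- cells, with a summed signal of 2284 in CD90+ and 1364 in CD90- cells. COL1A2, COL3A1, DCN, LUM and PDGFRB read 47.5 or less on both arrays. None of the 4 leukocyte markers with such a probe set, PTPRC, CD3E, CD14 and HLA-DRA, was measured (summed signal 46.2 in CD90+ and 132 in CD90- cells). Of 4 endothelial markers 1 was measured, PECAM1, at 98.5 in CD90+ and 70.9 in CD90- cells. The summed signal of the 4 was 155 in CD90+ and 102 in CD90- cells. The part of such cells in the values below was not tested. In bulk RNA, fewer cells of a kind and less RNA per cell cannot be told apart.

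A gene counted as measured when the probe set standing for it, its brightest outside the class prone to cross-hybridisation, reached a floor of 71.6 on at least 1 array. The floor is close to the median signal of both arrays. Signals below it were set to it before the log2 ratio of CD90+ over CD90- cells was computed. Of the 143 genes 106 (74.1%) were measured, against 63.0% of all genes with a probe set. The share was 69.2% (27 of 39) from MECOM to SOX2, 70.6% (36 of 51) from SOX2 to TP63 and 81.1% (43 of 53) from TP63 to LMLN. SOX2 and TP63, which are not members, serve as landmarks that divide the stretch. Both arrays were at or above the floor for 99 of the 106. The 37 genes that stayed under it on both arrays included the liver plasma proteins AHSG, FETUB, HRG and KNG1, the adipocyte hormone ADIPOQ and the neuropeptide SST.

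Most genes of the stretch were slightly lower in CD90+ cells, and the share that was lower differed between blocks of the arm. The ratio was below 1 for 70 of the 106 measured members, or 66.0%, where 48.8% of all 12466 measured genes had a ratio below 1. Their median log2 ratio was -0.16, against 0.01 over all measured genes. From MECOM to SOX2 the median was 0.11, and 9 of 27 ratios were below 1. Between SOX2 and TP63 it was -0.17, with 25 of 36 below 1. From TP63 to LMLN it was -0.31, a 1.24-fold difference, with 36 of 43 below 1. The middle 50% of ratios ran from -0.02 to 0.29 in the first block, from -0.33 to 0.01 in the second and from -0.40 to -0.13 in the third. Among members with several measured probe sets, the log2 ratios within a gene had a pooled SD of 0.28 over 64 genes. With 1 array per population, no test of the differences between blocks was possible.

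**Figure D1:**
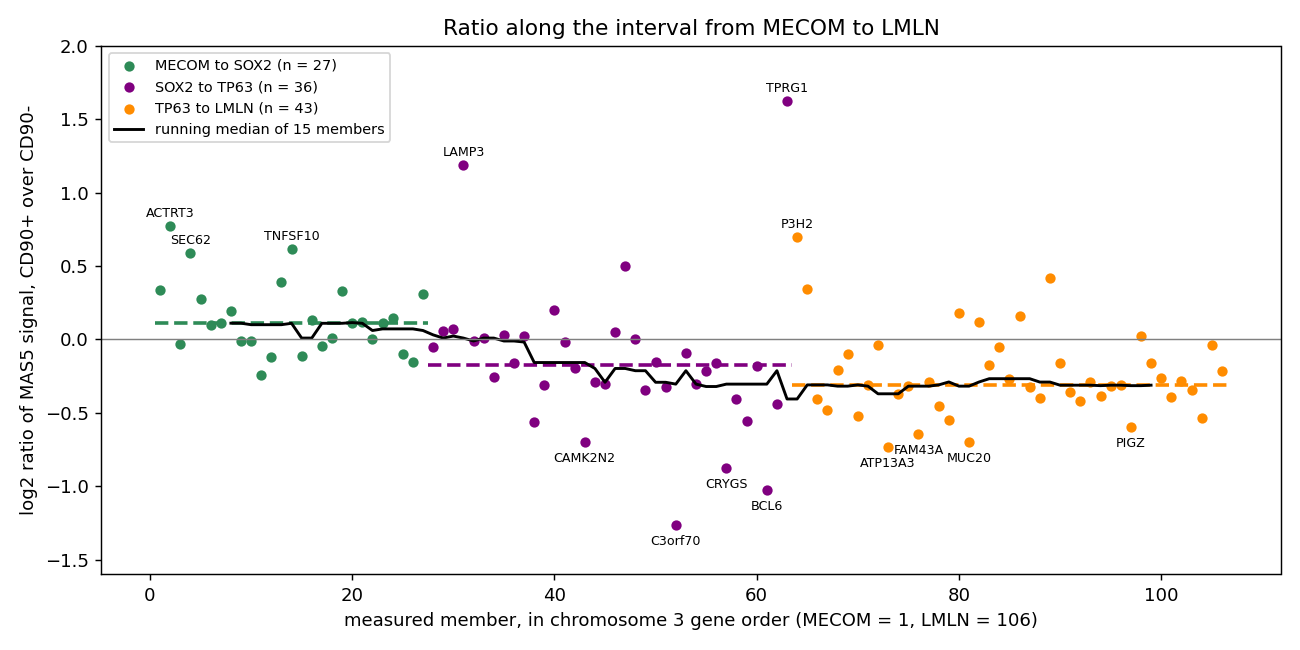
Log2 ratio of MAS5 signal, CD90+ over CD90-, for the 106 measured members in gene order, coloured by block. Dashed lines are block medians (0.11, -0.17 and -0.31) and the black line is the running median of 15 members, which lies near 0.1 at the left and near -0.3 at the right; members at least 1.5-fold apart are named.

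A running median over 15 consecutive measured members passed from above 0 near MECOM to below 0 toward LMLN, without steps at the landmarks. It fell mainly inside the block from SOX2 to TP63. There it went from -0.02 over the members from MCCC1 to ECE2 to -0.32 over those from POLR2H to LPP. It was highest, at 0.11, over the members from FNDC3B to FXR1, of which 4 of 15 were below 1. It was first negative over the members from USP13 to DVL3 and was last at or above 0 over those from FXR1 to VWA5B2. It was lowest, at -0.41, over the members from TRA2B to ATP13A5 and, equally, over those from CRYGS to ATP13A4. Both of these windows span TP63. Windows wholly after TP63 ran from -0.37 to -0.27. Of all 92 windows 66 had a negative median. Successive windows share all but 1 of their members, so this count restates the same ratios. Neither windows nor unbroken series were counted for the rest of the array. The longest unbroken series of ratios below 1 were 14 members from CHRD to LPP, with a median of -0.33, and 14 from CCDC50 to PPP1R2, with a median of -0.39. The longest series above 1 was 7 members, from ZMAT3 to NDUFB5, with a median of 0.11.

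The order of the block medians was the same among bright probe sets. With both arrays at or above 4 times the floor, where MAS5 ratios are steadier, the medians were 0.11 (n = 26), -0.16 (n = 30) and -0.29 (n = 32) for the 3 blocks in order, against 0.01 over the 8317 genes of that brightness. In that subset 27 of 32 members from TP63 to LMLN had a ratio below 1.

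At the MECOM end the genes just inside and just outside were mixed. Inside, MECOM had a log2 ratio of 0.34, ACTRT3 0.78 and MYNN -0.03. The nearest measured protein-coding genes before MECOM were GOLIM4 at 0.03, SERPINI1 at -1.14, PDCD10 at -0.15 and BCHE at 0.74. At the far end DRC9 had -0.54, RPL35A -0.04 and LMLN -0.21, and 0 measured protein-coding genes followed. The last 8 measured members, from DLG1 to LMLN, were all below 1, with a median of -0.27. The 583 measured genes of chromosome 3 that start before MECOM had a median of -0.01, and 51.8% of their ratios were below 1. Whole autosomes had medians from -0.27 (chromosome 2) to 0.14 (chromosome 11).

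Few members differed by much. At least 1.5-fold higher were 6 of 106 (5.66%), where 7.37% of all measured genes were. At least 1.5-fold lower were 8 (7.55%), where 6.76% of all were. Both shares are near the background. At least 2-fold higher were 2 members (2.47% of all genes) and at least 2-fold lower also 2 (1.75% of all genes). Under 1.5-fold were 92 of the 106 (86.8%), near the 85.9% of all measured genes. The shift of the stretch thus lay in small differences of many genes.

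TPRG1, the neighbour of TP63 that is named for its regulation by the p63 protein, had the highest ratio. Its only probe set read 5311 in the CD90+ sample and 1720 in the CD90- sample, a difference of 3.09-fold. LAMP3, a lysosomal membrane glycoprotein known from mature dendritic cells and inducible by interferon and hypoxia, read 6859 in CD90+ and 3007 in CD90- cells, 2.28-fold higher. The leukocyte genes PTPRC (20.6 in CD90+, 44.0 in CD90- cells) and HLA-DRA (7.62 in CD90+, 25.9 in CD90- cells) were under the floor on both arrays. Both TPRG1 and LAMP3 lie between SOX2 and TP63, where the median was negative.

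TNFSF10 encodes the death receptor ligand TRAIL, another interferon-inducible gene. It read 1473 in CD90+ and 960 in CD90- cells, 1.53-fold higher, and its other probe sets gave 1.42-fold and 1.43-fold. The RefSeq window of TNFSF10, 250 bases before to 50 after its start, is shown because it holds a match to the interferon-stimulated response element core, GAAANNGAAA on either strand. The match, in capitals, reads on the opposite strand.
TNFSF10, chr3:172523381-172523680, minus strand, GRCh38.p14: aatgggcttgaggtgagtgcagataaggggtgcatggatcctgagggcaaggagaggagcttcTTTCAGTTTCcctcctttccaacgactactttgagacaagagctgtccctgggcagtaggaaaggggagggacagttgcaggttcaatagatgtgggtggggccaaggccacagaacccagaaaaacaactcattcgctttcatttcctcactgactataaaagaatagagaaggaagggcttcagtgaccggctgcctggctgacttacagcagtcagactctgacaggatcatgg
The same letters occur in 4.16% of 15843 protein-coding genes with a window, and in 2 of the 93 measured members that have one. A match is a description of letters, not of a bound site.

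Among the remaining higher genes, ACTRT3, an actin-related protein best known from testis, read 229 in CD90+ and 134 in CD90- cells, 1.71-fold higher on its only probe set. P3H2, a prolyl 3-hydroxylase that modifies collagen, read 211 in CD90+ and 130 in CD90- cells, 1.62-fold higher. SEC62, part of the machinery that moves proteins into the endoplasmic reticulum, read 13981 in CD90+ and 9278 in CD90- cells, 1.51-fold higher. Its 4 other measured probe sets ranged from a log2 ratio of -0.01 to 0.41, so the SEC62 difference depends on the probe set.

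BCL6, a transcriptional repressor of germinal centre B cells that is also made in epithelia, was lower in CD90+ cells. It read 447 in CD90+ and 908 in CD90- cells, 2.03-fold lower, while its dimmer probe set read 145 in CD90+ and 149 in CD90- cells. The 2 probe sets thus disagree. RefSeq gives BCL6 more than 1 start, and the window of the upstream one is printed because it holds 4 matches to TTCNNNGAA, the palindromic gamma-activated site read by STAT factors. The matches are in capitals.
BCL6, chr3:187745419-187745718, minus strand, GRCh38.p14: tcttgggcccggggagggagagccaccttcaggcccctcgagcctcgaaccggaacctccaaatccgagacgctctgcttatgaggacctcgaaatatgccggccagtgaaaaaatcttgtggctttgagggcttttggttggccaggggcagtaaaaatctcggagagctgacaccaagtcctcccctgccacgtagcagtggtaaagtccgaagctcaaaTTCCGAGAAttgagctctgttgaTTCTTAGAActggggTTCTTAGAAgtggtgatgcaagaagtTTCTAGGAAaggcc
In all, 8.98% of the 15843 genes and 9 of the 93 measured members hold at least 1 such match. The other BCL6 window holds 0.

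C3orf70 read 98.7 in CD90+ and 237 in CD90- cells, 2.40-fold lower, on a dim probe set, and its other probe set was under the floor on both arrays. The lens crystallin CRYGS read 65.7 in CD90+ and 132 in CD90- cells, at least 1.84-fold lower. ATP13A3, a polyamine transporting ATPase, read 2842 in CD90+ and 4719 in CD90- cells, 1.66-fold lower, although its dimmer probe set read 160 in CD90+ and 157 in CD90- cells. The mucin gene MUC20 was at least 1.62-fold lower (69.99 in CD90+, 116 in CD90- cells), and its other measured probe set gave 56.5 in CD90+ and 120 in CD90- cells. CAMK2N2, an inhibitor of calcium/calmodulin-dependent kinase II, read 328 in CD90+ and 533 in CD90- cells, 1.62-fold lower, and 97.8 in CD90+ against 109 in CD90- cells on its other probe set. FAM43A read 775 in CD90+ and 1213 in CD90- cells, 1.56-fold lower. PIGZ, a mannosyltransferase of glycosylphosphatidylinositol anchors, read 195 in CD90+ and 295 in CD90- cells, 1.51-fold lower. CD90 itself carries such an anchor. PIGZ was inside 1.5-fold under quantile normalization (log2 ratio -0.58) and loess (-0.56), and SEC62 under loess (0.58). With the mean over a gene's measured probe sets, SEC62, TNFSF10, CAMK2N2, BCL6 and ATP13A3 were also inside 1.5-fold.

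**Figure D2:**
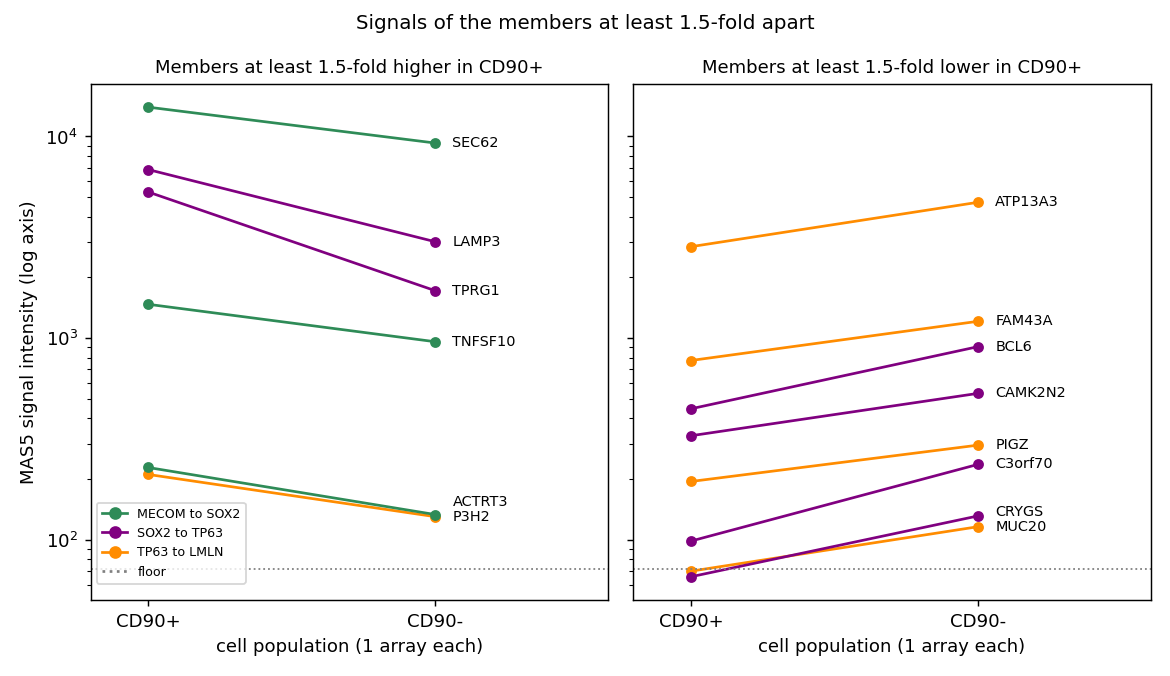
MAS5 signal (log axis) in CD90+ and CD90- cells, 1 array each, for the 6 members at least 1.5-fold higher (left panel) and the 8 at least 1.5-fold lower (right panel) in CD90+ cells. Colours give the block and the dotted line the floor of 71.6; CRYGS and MUC20 lie under it in CD90+ cells.

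Members were also grouped by role. For comparison, ratios were below 1 for 66.0% of all measured members and 48.8% of all measured genes. In the transcription and chromatin list 8 of 11 measured genes had ratios above 1 (72.7%), where 51.2% of all measured genes did. Of these, POLR2H, ACTL6A and ZMAT3 had log2 ratios of 0.01 or less, and YEATS2 had 0.03. The list median was 0.01, against 0.01 over all measured genes, with BCL6 the 1 member beyond 1.5-fold. TBL1XR1, a corepressor subunit, read 15591 in CD90+ and 16072 in CD90- cells. ACTL6A read 11756 in CD90+ and 11718 in CD90- cells, and POLR2H, a subunit shared by the RNA polymerases, 6402 in CD90+ and 6390 in CD90- cells. MECOM read 762 in CD90+ and 603 in CD90- cells, 1.26-fold higher, and 624 in CD90+ against 372 in CD90- cells on its second measured probe set. SKIL, a repressor of TGF-beta signalling, read 4366 in CD90+ and 3823 in CD90- cells, and ZNF639, a zinc finger factor known from amplification in esophageal squamous carcinomas, 5109 in CD90+ and 4057 in CD90- cells. Of the 11, 8 lie in the block before SOX2.

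Among kinases and other signalling genes 10 of 16 ratios (62.5%) were below 1, with a median of -0.20. That share is near the 66.0% of all measured members. By block, 2 of 6 were below 1 from MECOM to SOX2, 4 of 4 between SOX2 and TP63, and 4 of 6 from TP63 to LMLN. ECT2 read 12195 in CD90+ and 11104 in CD90- cells, PRKCI 6552 in CD90+ and 6068 in CD90- cells, and GNB4, a G protein beta subunit, 7932 in CD90+ and 7316 in CD90- cells. In the second block MAP3K13, a kinase upstream of JNK, read 3717 in CD90+ and 4591 in CD90- cells. LPP, a LIM protein of focal adhesions, read 1409 in CD90+ and 1914 in CD90- cells, and DVL3, a Wnt signal transducer, 1186 in CD90+ and 1469 in CD90- cells. In the third block PAK2 read 3291 in CD90+ and 4025 in CD90- cells, DLG1 2563 in CD90+ and 2871 in CD90- cells, and PPP1R2, an inhibitor of protein phosphatase 1, 1854 in CD90+ and 2716 in CD90- cells. The exceptions there were IL1RAP, the accessory chain of the interleukin-1 receptor, at 402 in CD90+ and 317 in CD90- cells, and the kinase TNK2 at 331 in CD90+ and 305 in CD90- cells. On its other measured probe set IL1RAP read 345 in CD90+ and 184 in CD90- cells, 1.87-fold higher.

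Genes of translation differed little, with 6 of 8 (75%) below 1 and a median of -0.03. RPL35A read 30569 in CD90+ and 31418 in CD90- cells and RPL22L1 18359 in CD90+ and 18535 in CD90- cells; both belong to ribosomal protein families with many near-identical copies, so their probe sets may share signal. FXR1, an RNA-binding relative of the fragile X protein, read 19950 in CD90+ and 16100 in CD90- cells. Its 6 measured probe sets spread from -0.57 to 1.24 on the log2 ratio scale. EIF2B5, a subunit of the exchange factor for eIF2, had a log2 ratio of -0.56 on its brighter probe set and 0.64 on its dimmer one. EIF4A2 was represented by a dim probe set under the floor, while a bright one that the annotation shares with small RNA genes of its introns read 15094 in CD90+ and 17762 in CD90- cells.

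All 5 measured genes of RNA processing and DNA repair had ratios below 1, with a median of -0.31. The largest difference was in RFC4, a subunit of the clamp loader of DNA replication, at 6051 in CD90+ and 8882 in CD90- cells, 1.47-fold lower. TRA2B, a splicing factor, read 15157 in CD90+ and 16940 in CD90- cells, and FYTTD1, an mRNA export adaptor, 4271 in CD90+ and 5198 in CD90- cells. RNF168, a ubiquitin ligase of the response to DNA breaks, read 3331 in CD90+ and 4399 in CD90- cells. All 5 lie after SOX2, where 25 of 36 measured members of the second block and 36 of 43 of the third were below 1.

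In the ubiquitin, SUMO and proteasome list 6 of 8 (75%) were below 1, with a median of -0.21. PSMD2, a subunit of the proteasome base, read 8229 in CD90+ and 10176 in CD90- cells. DCUN1D1, a factor of cullin neddylation, read 11944 in CD90+ and 11451 in CD90- cells, and FBXO45, a substrate receptor of ubiquitin ligases, 2991 in CD90+ and 3345 in CD90- cells. SENP5, a SUMO protease, read 1068 in CD90+ and 1395 in CD90- cells. Mitochondrial and peroxisomal genes had 3 of 8 below 1 and a median of 0.05. The 3 from MECOM to SOX2 were all above 1: MRPL47 of the mitochondrial ribosome read 19687 in CD90+ and 18182 in CD90- cells, and NDUFB5 of respiratory complex I 17918 in CD90+ and 16186 in CD90- cells. MFN1, which fuses outer mitochondrial membranes, read 2282 in CD90+ and 2114 in CD90- cells. The 2 in the last block were below 1, OPA1 at 1237 in CD90+ and 1269 in CD90- cells and the ketone body enzyme BDH1 at 713 in CD90+ and 855 in CD90- cells. MCCC1, an enzyme of leucine breakdown, read 6478 in CD90+ and 6164 in CD90- cells.

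The secretory and glycosylation list had 11 of 14 (78.6%) below 1 and a median of -0.24. PIGX, which helps add the first mannose to glycosylphosphatidylinositol anchors, read 2018 in CD90+ and 2706 in CD90- cells. PCYT1A, the rate-limiting enzyme of phosphatidylcholine synthesis, read 2402 in CD90+ and 2891 in CD90- cells. RUBCN, a negative regulator of autophagy, read 999 in CD90+ and 1309 in CD90- cells. B3GNT5, a glycosyltransferase that starts lacto-series glycolipids, read 14092 in CD90+ and 14197 in CD90- cells. Of the surface and matrix list 5 of 10 genes with a probe set were measured, 3 of them below 1. TFRC read 28811 in CD90+ and 32579 in CD90- cells, and FNDC3B, an endoplasmic reticulum membrane protein with fibronectin domains, 4102 in CD90+ and 3126 in CD90- cells. All 5 measured probe sets of FNDC3B had ratios above 1. MELTF, or melanotransferrin, read 2453 in CD90+ and 2416 in CD90- cells.

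On the probe set standing for each gene, all 4 transport genes were below 1, led by ATP13A3. The phospholipid flippase ATP11B read 12460 in CD90+ and 12919 in CD90- cells. Its 5 other measured probe sets were all above 1, with log2 ratios from 0.08 to 0.52. The dimmer probe set of ATP13A3 was at 0.03, so for both genes the direction depends on the probe set. Their relatives ATP13A4 (66.0 in CD90+, 88.8 in CD90- cells) and ATP13A5 (73.2 in CD90+, 105 in CD90- cells) read close to the floor. On the same probe sets, interferon-inducible genes were the 1 list with every measured member beyond 1.5-fold, LAMP3 and TNFSF10. The other probe sets of TNFSF10 were inside it, at 1.42-fold and 1.43-fold, so this depends on the probe set. RTP4, the remaining member, read 5.59 in CD90+ and 1.44 in CD90- cells. With 2 measured genes the list result is a description of those genes. Of 15 secreted hormones and plasma proteins with a probe set 3 were measured, all near the floor: FGF12 at 74.4 in CD90+ and 104 in CD90- cells, APOD at 81.1 in CD90+ and 60.5 in CD90- cells, and CHRD at 37.8 in CD90+ and 90.7 in CD90- cells. The 22 measured members in no list had a median of -0.18, with 17 below 1.

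**Figure D3:**
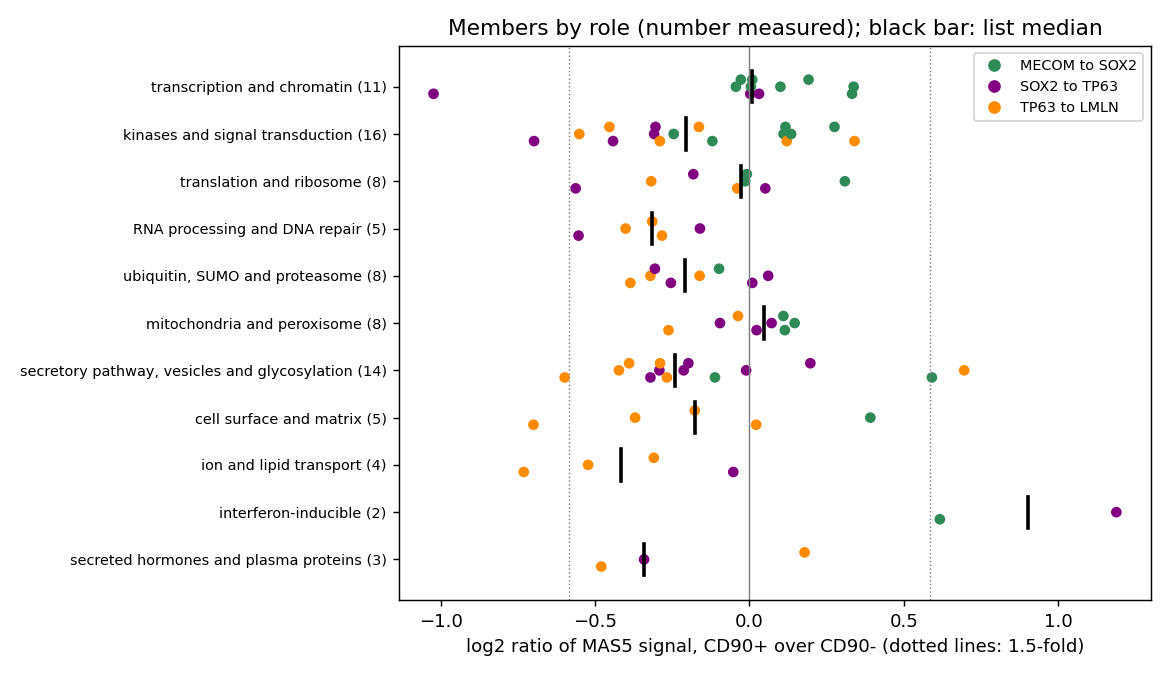
Log2 ratio, CD90+ over CD90-, of the 84 measured members that belong to 1 of 11 role lists, 1 point per gene, coloured by block. Black bars are list medians and dotted lines mark 1.5-fold. In all 6 lists that hold both blocks the median from TP63 to LMLN lies left of that from MECOM to SOX2. Single points overlap, such as IL1RAP at 0.34 and P3H2 at 0.70. Several of these medians rest on few genes. From MECOM to SOX2 the ubiquitin and surface lists have 1 gene each and the secretory list 2. From TP63 to LMLN the translation and mitochondrial lists have 2 each. The lists split the same members as the blocks do.

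Several neighbours in the last block start back to back on opposite strands, so that 1 stretch of DNA lies before both genes. Of the RefSeq starts, 5 pairs of measured members lay within 250 bases of each other in this way, and their ratios are set side by side. CEP19, a centrosomal protein, had a log2 ratio of -0.36 and its partner PIGX -0.42, with 127 bases between the starts. NCBP2, the small subunit of the nuclear cap-binding complex, had -0.31 and NCBP2AS2 -0.31, at 146 bases. RUBCN had -0.39 and FYTTD1 -0.28, at 63 bases. DRC9, of the dynein regulatory complex of cilia, had -0.54 and LMLN, a metallopeptidase, -0.21, at 226 bases. The pair farthest apart was WDR53, a WD repeat protein, at 0.42 and FBXO45 at -0.16, at 106 bases. The windows of CEP19 and PIGX, whose ratios differed by 0.06, and of WDR53 and FBXO45, whose ratios differed by 0.58, are printed with the bases between both starts in capitals.
CEP19, chr3:196712201-196712500, minus strand, GRCh38.p14: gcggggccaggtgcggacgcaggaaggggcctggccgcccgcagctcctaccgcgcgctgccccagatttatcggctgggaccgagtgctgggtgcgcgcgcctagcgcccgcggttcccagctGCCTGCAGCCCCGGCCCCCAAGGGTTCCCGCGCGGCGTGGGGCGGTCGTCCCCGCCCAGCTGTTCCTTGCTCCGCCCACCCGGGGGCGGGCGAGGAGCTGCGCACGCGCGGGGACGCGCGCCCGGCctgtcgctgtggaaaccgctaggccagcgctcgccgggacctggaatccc
WDR53, chr3:196568505-196568804, minus strand, GRCh38.p14: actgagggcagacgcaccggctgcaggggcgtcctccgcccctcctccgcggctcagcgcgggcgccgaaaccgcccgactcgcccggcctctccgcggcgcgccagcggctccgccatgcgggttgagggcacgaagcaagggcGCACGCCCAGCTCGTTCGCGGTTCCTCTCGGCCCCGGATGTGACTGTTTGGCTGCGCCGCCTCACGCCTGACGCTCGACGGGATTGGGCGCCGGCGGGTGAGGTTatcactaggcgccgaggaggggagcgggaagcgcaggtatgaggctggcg
In signal, WDR53 read 525 in CD90+ and 393 in CD90- cells and FBXO45 2991 in CD90+ and 3345 in CD90- cells. CEP19 read 535 in CD90+ and 686 in CD90- cells. The pair ratios depend on the probe set. Another measured one of CEP19 gave -1.33, and those of PIGX gave -0.37 and 0.05. The other one of RUBCN gave 0.05, those of LMLN -0.59 and 0.07, and those of FBXO45 -0.02 and -0.39. Those of NCBP2 and FYTTD1 gave -0.38 and -0.26. In this block 36 of 43 measured members were below 1, which is the background for these pairs.

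The same measurement on probe sets that did not stand for their gene gave similar medians. For 64 members with such probe sets, 141 in all, the mean log2 ratio of these was taken per gene. Its median was 0.10 over 20 genes from MECOM to SOX2, -0.11 over 18 between SOX2 and TP63 and -0.22 over 26 from TP63 to LMLN, against -0.01 over 6153 genes of the array. It was below 0 for 6 of 20, 11 of 18 and 21 of 26 genes in the 3 blocks. The sign matched that of the brightest probe set in 16 of 20, 10 of 18 and 23 of 26 genes. All 5 probe sets of CCDC50, which binds ubiquitin chains, lay between -0.47 and -0.31, and the 3 of LSG1, a GTPase of ribosome export, between -0.32 and -0.20. These probe sets share the RNA samples, so they speak to the array measurement and not to the spread between sorts.

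**Figure D4:**
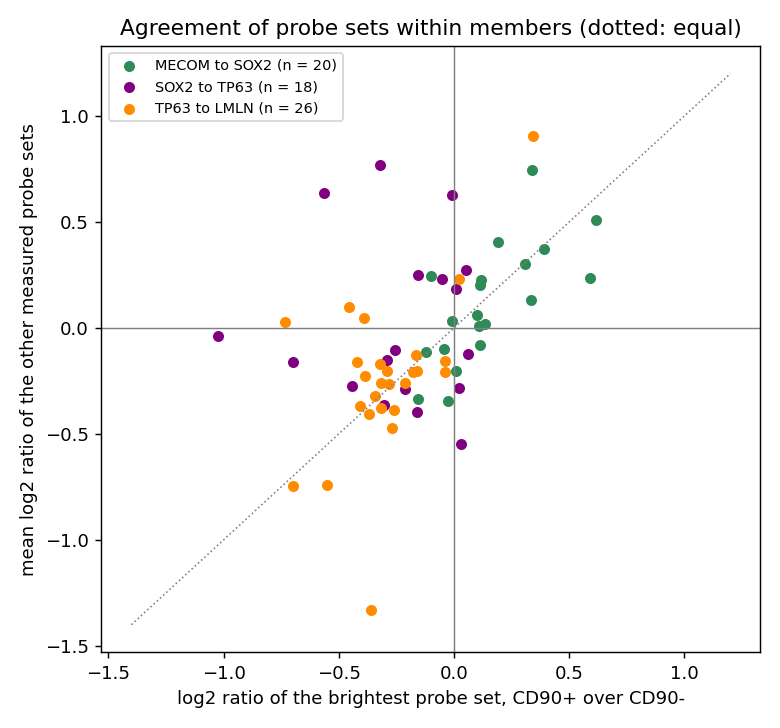
Log2 ratio of the brightest probe set (x axis) against the mean log2 ratio of the other measured probe sets (y axis), CD90+ over CD90-, for the 64 members with both. Of the 26 genes from TP63 to LMLN, 21 lie below 0 on both axes; the dotted line marks equal values.

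Genes of the same stretch that are not members followed a like order. Of 25 measured, 11 protein-coding genes left out by name and 14 noncoding genes or pseudogenes, 20 had ratios below 1 and the median was -0.25. The median was -0.01 over 5 genes from MECOM to SOX2, -0.29 over 11 between SOX2 and TP63 and -0.31 over 9 from TP63 to LMLN, where 8 of 9 were below 1. The noncoding genes alone had 12 of 14 below 1 and a median of -0.19. Several of them overlap or neighbour members, and antisense partners can share signal.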

How the data were processed

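Gene expression was measured in 1 CD90+ and 1 CD90- sample, grouped by the cell population label. The deposited values are linear signal intensities of 54675 probe sets, made with MAS5 per the submitters' processing notes; its version and settings were not stated there, and no genome build goes with them. Scanner files were not used here. The 62 control probe sets were left out, and 1801 probe sets with several symbols were not named. Symbols and gene order come from RefSeq (GRCh38.p14), as do the promoter windows, which 146 of the 164 members had. The number of arrays limits the precision. One probe set stood for a gene, that with the highest mean log2 signal, the _x_at class only where there was no other. Ratios were taken after setting signals under the floor (71.6, the geometric mean of both arrays' medians) to it, and counted at 1.5-fold and 2-fold with no test. The procedure was tested on simulated data with planted changes and a spread set by hand. That checks the code and does not show whether a shift stands out in these arrays. Members, blocks and role lists were chosen with earlier results of these data known. The text names members at least 1.5-fold apart, the 3 brightest others of each list, the end genes and the squamous cancer genes PRKCI, ECT2 and TFRC; further members were chosen after their values were seen. Alternatives changed the floor, the scaling of the arrays (median, quantile, loess with a span of 0.3) and the choice of probe set. Python 3.11.15, numpy 2.4.6, pandas 2.3.3, statsmodels 0.14.6 and matplotlib 3.10.9 were used.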

Additional observations from a re-analysis of the deposited data

How the results depend on the processing

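Across 9 alternatives planned beforehand and 1 chosen after seeing the data (both arrays at or above the floor), the block medians kept their signs and their order. Only the probe set with the smallest change, which by its construction pulls ratios toward 0, moved a median by more than 0.1: that of all members to -0.050, of the block MECOM to SOX2 to 0.0093 and of TP63 to LMLN to -0.17. By that choice 60.4% of members had ratios below 1, against 48.8% of all genes, and 28 of 43 from TP63 to LMLN did. It also left 5 members at least 1.5-fold lower (4.72%, against 4.52% of all genes) and 1 at least 2-fold lower (0.943%, against 1.14%). A floor at the 25th percentile gave 131 measured members, of which 14 were at least 1.5-fold higher (10.7%, against 13.8% of all genes) and 16 lower (12.2%, against 12.0%). At 2-fold 5 were higher (3.82%, against 6.51%) and 5 lower (3.82%, against 4.85%). A floor at the 75th percentile left 3 members at least 1.5-fold lower (3.49%, against 4.42%) and 1 at least 2-fold lower (1.16%, against 0.813%). Without a floor 4 were at least 2-fold lower (3.77%, against 3.06%). Under quantile normalization, loess or the mean over probe sets 1 was (0.943%, against 1.33% to 1.69% of all genes). With probe sets of the _a_at, _s_at and _x_at kinds left out, 3 of 91 members were at least 1.5-fold higher (3.30%, against 7.37%). The alternatives gave 436 values for 46 named genes. Many of these could not move, because a gene with 1 measured probe set keeps its ratio when probe sets are chosen otherwise. Bright genes likewise keep theirs when the floor changes. Of the 436 values, 424 stayed within 0.28 of the log2 ratio reported, a count that is thus partly fixed in advance. The other sign was seen in 17 values, in 11 genes. Among these genes 2 were beyond 1.5-fold as reported, SEC62 (to -0.013) and ATP13A3 (to 0.028), both by the probe set with the smallest change. That choice also turned PIGX (to 0.048), LMLN (to 0.065) and MRPL47 (to -0.079). The mean over probe sets turned B3GNT5 (to 0.42) and ATP11B (to 0.18), and leaving out the 3 kinds turned DCUN1D1 (to -0.20). RPL35A, ACTL6A and POLR2H, all within 0.04 of 0 as reported, also turned under at least 1 alternative. The cause was not tested. Dim probe sets limit the ratios near the floor. No paired analysis was possible because each population has 1 array.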
